A study of Mus musculus with 18 samples.

Results

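The mitochondrial ribosomal protein genes examined here are the rows of the deposited table whose symbol begins with Mrpl or Mrps followed by a number, with no pseudogene among them. There were 77 of them among 22787 genes, 48 named Mrpl and 29 named Mrps. All 77 had a signal above 0 in each of 18 libraries, all 77 passed the filter on low values in every fit, and single values lay between 9.94 and 654 signal units.

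Mitochondria keep their own ribosome, which makes the few respiratory chain proteins that the mitochondrial genome encodes. Its RNAs come from that genome, but its proteins are encoded in the nucleus, made on cytosolic ribosomes and imported, so that a mitochondrial ribosome depends on both translation systems. The kinase complex mTORC1, defined by its subunit Raptor and held in check by the complex that contains Tsc2, is known in other cells for raising the output of cytosolic ribosomes and of mitochondria.

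RNA of 12 samples of granulocyte-monocyte progenitors (GMPs), the marrow cells that give rise to neutrophils and monocytes, and of 6 samples of a mouse myeloid line was sequenced with the low-input SmartSeq2 method. By their titles the GMPs came as Raptor KO with Raptor fl/fl controls and as Tsc2 KO with Tsc2 fl/fl controls, 3 libraries in each group. Each GMP sample held 10000 cells, sorted as kit+ Sca- CD127- CD135- and FcγRII/III+ with low CD34 and low Ly6C. The labels used here give neither the Cre driver nor strain, age or the number of mice. The line groups, with 2 libraries each, were DR-ER-Hoxb8 cells, immortalized progenitors whose Hoxb8 fusion protein needs estradiol to keep them immature, grown with stem cell factor. Estradiol was withdrawn for 3 days of differentiation, with 100 nM rapamycin, which blocks mTORC1, with 10 nM SL0101-01, which blocks RSK kinases, or with DMSO, the vehicle. Replicates are not stated to be separate animals or cultures, so p-values measure the spread between these libraries, which may be technical.

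The libraries held 2.31 to 3.52 M fragments. Values are the normalized signal of the deposited table, called units here. None of 10 GMP markers was at 0 in any library. Of the genes the gate selects against, Flt3 had 20.7 to 172 units in the GMP libraries. Ly6a, for Sca, had 2.22 to 29.1 units there, and Il7r, for CD127, had 0 to 29.1 units. Rptor, the gene for Raptor, had 61.5, 58.7 and 69.5 units in Raptor KO GMPs, against 88.0, 78.6 and 86.8 units in Raptor fl/fl GMPs (limma, log2 fold change -0.41 ± 0.24 (SE), adjusted p = 0.377), and since the labels do not say which part of the gene is deleted, this whole-gene value is no check of the deletion. Tsc2 had 103, 99.0 and 83.0 units in Tsc2 KO GMPs, against 269, 235 and 241 units in Tsc2 fl/fl GMPs (log2 fold change -1.38 ± 0.18, adjusted p = 0.00017). The summed level of 10 GMP markers was 64087 to 66549 units in Raptor KO and 70536 to 81143 units in Raptor fl/fl libraries. In the Tsc2 line it was 40633, 8740 and 13141 units in the KO libraries 1, 2 and 3 and 78206, 36829 and 82731 units in the fl/fl libraries, so that Tsc2 fl/fl replicate 2 and Tsc2 KO replicate 1 stood apart within their groups. In the Hoxb8 cells the same sum was 57275 to 59110 units in rapamycin, 25901 to 32604 units in SL0101 and 13296 to 14343 units in DMSO. Mpo had the most signal of the 10 markers, with means of 37665 units in Raptor KO and 46584 units in Raptor fl/fl GMPs. Between those 2 groups, 5 markers had positive and 5 negative log2 fold changes (median -0.02). At an adjusted p under 0.05 in limma, 1 was higher and 0 lower. In Tsc2 KO against Tsc2 fl/fl, 1 of the 10 markers had a positive and 9 a negative log2 fold change (median -1.71). By the same threshold 0 were higher and 3 lower, so GMP markers were lower in the Tsc2 KO group as a whole. The part of this in the members' values was not tested.

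The most abundant member per transcript length was Mrpl20, a large-subunit protein with a bacterial counterpart, at 657 units per 1000 bases over all 18 libraries. Mrpl18, whose bacterial counterpart binds the smallest ribosomal RNA, had 396 units per 1000 bases. Mrpl47, related to the bacterial L29 protein, was lowest at 20.5 units per 1000 bases. As background, most of these proteins are present once in a ribosome, while Mrpl12, the protein of the flexible stalk that contacts translation factors, is present in several copies. Without a correction for length, the mean signal over the 18 libraries was 482 units for Mrpl18, 369 for Mrps14, 356 for Mrpl12, 325 for Mrpl20 and 322 for Mrpl28, the 5 with the most signal. It was 64.5 units for Mrpl53, 69.1 for Mrpl47, 72.6 for Mrps6, 74.4 for Mrps31 and 77.5 for Mrpl24, the 5 with the least.

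As a group, the 77 genes took 0.628%, 0.548% and 0.575% of the signal in Raptor KO GMPs, against 0.759%, 0.665% and 0.682% in Raptor fl/fl GMPs. In the Tsc2 line they took 0.732%, 0.783% and 0.779% in KO GMPs, against 0.661%, 0.688% and 0.684% in fl/fl GMPs. The shares were thus lower in every Raptor KO library and higher in every Tsc2 KO library than in any library of the matching control. In Hoxb8 cells they were 0.356% and 0.419% in rapamycin, 0.440% and 0.419% in SL0101 and 0.370% and 0.382% in DMSO, and the rapamycin values lay on both sides of the DMSO values. In this bulk RNA, fewer cells of a type and less RNA per cell cannot be told apart.

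**Figure D1:**
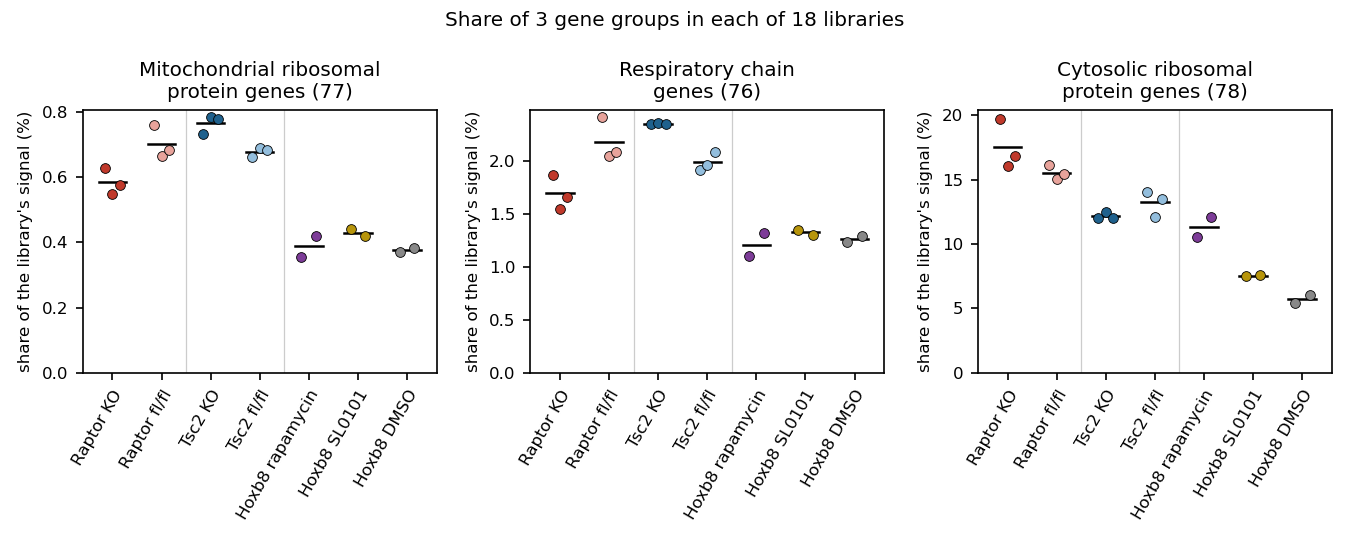
Share of each library's signal (%, y axis) taken by the 77 mitochondrial ribosomal protein genes, 76 respiratory chain genes and 78 cytosolic ribosomal protein genes. Points are libraries, horizontal bars group means; the first 2 groups of genes sit lower in Raptor KO and higher in Tsc2 KO than in their controls, while the cytosolic group reaches 19.7% in 1 Raptor KO library and is highest in rapamycin among Hoxb8 cells.

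The cytosolic ribosomal protein genes moved apart from them. Per 100 units of cytosolic ribosomal protein signal there were 3.19 to 3.41 units of mitochondrial ribosomal protein signal in Raptor KO, against 4.42 to 4.71 in Raptor fl/fl, and 6.08 to 6.49 in Tsc2 KO, against 4.71 to 5.67 in Tsc2 fl/fl. In the line there were 3.37 to 3.46 units in rapamycin and 5.53 to 5.85 in SL0101, against 6.29 to 6.82 in DMSO. None of these ranges overlapped within its pair. Per 100 units of respiratory chain signal there were 33.6 to 35.3 units in Raptor KO, against 31.4 to 32.6 in Raptor fl/fl, and 31.1 to 33.1 in Tsc2 KO, against 32.8 to 34.9 in Tsc2 fl/fl. In the line there were 31.8 to 32.4 units in rapamycin and 32.1 to 32.6 in SL0101, against 29.6 to 29.9 in DMSO. These ranges overlapped in the Tsc2 line and did not overlap in the other pairs.

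The promoters of the members are shown because 15 of the 77 differed between the knockouts in the same direction, as described further on. RefSeq promoters on build GRCm38.p6, 300 bases each with 250 before and 50 after the annotated start, were matched by symbol for 68 of the 77 members, 13 of those 15 included. Of these 13, 9 hold at least 1 of 4 letter strings sought, as do 39 of all 68 matched members. The ETS-type string alone is in 5 of the 13 and in 25 of the 68, so the strings do not set the 13 apart. Of the 9, 4 are printed as examples, over the 150 bases before the start. The capitals mark the E-box CACGTG in Mrpl20 and the ETS-type string CCGGAAG, the core bound by GABP factors, in the other 3. Each window ends at the base before the annotated start and is written 5′ to 3′ on the strand of the gene.
Mrps22 (chr9:98601680-98601829, minus strand): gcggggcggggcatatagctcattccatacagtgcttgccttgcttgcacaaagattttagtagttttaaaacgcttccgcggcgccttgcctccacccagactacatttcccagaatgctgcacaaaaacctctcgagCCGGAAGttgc
Mrpl27 (chr11:94653641-94653790, plus strand): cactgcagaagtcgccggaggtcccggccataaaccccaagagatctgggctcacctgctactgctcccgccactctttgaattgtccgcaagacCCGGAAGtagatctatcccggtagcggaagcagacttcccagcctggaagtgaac
Mrpl34 (chr8:71464776-71464925, plus strand): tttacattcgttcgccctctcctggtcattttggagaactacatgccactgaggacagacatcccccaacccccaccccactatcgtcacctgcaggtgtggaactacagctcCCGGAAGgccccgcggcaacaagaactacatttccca
Mrpl20 (chr4:155802728-155802877, plus strand): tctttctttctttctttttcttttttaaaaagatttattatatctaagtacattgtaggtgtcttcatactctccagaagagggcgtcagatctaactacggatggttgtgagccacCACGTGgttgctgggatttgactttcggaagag

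In the whole 300-base windows, on both strands, CCGGAAG was present in 25 of 68 members, or 36.8%, against 19.5% of the windows of 9943 genes tested in GMPs and 9.93% of all 27025 windows. The YY1-type string AAGATGG was present in 19.1% of members, against 8.33% of tested genes and 7.28% of all. GCATGCG, part of the NRF1 site, was present in 11.8% of members, against 7.16% of tested genes and 4.02% of all. CACGTG, the E-box read by MYC and by TFEB-type factors, was present in 7.35% of members, against 11.6% of tested genes and 8.09% of all. A match describes letters only.

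Raptor KO GMPs had less RNA of part of the mitochondrial ribosome, and no member passed the test in the other direction. In Raptor KO against Raptor fl/fl, 4 members fell and 0 rose (5.19% and 0.00% of the 77 members), where 2.42% of 13237 genes tested fell and 1.53% rose, 3.94% in all. A gene passed at a Benjamini-Hochberg adjusted p under 0.05 in limma, on log2 of the value plus 1. At an unadjusted p under 0.05, 26 members were lower and 1 higher, and with voom weights 6 were lower and 0 higher. Log2 fold changes of the members had a median of -0.27, against 0.03 for all genes, and 64 of 77 were negative. In 25 members each KO library lay below each control library, and in 1 above, where 13.1% and 13.3% of all genes did so.

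Mrpl54, a large-subunit protein with no bacterial counterpart, had 147, 109 and 97.7 units in Raptor KO GMPs, against 221, 187 and 180.1 units in Raptor fl/fl GMPs (log2 fold change -0.75 ± 0.18 (SE), adjusted p = 0.026). Mrps28, a small-subunit protein, had 248, 201.4 and 199 units in Raptor KO GMPs, against 364, 353 and 286 units in Raptor fl/fl GMPs (-0.63 ± 0.15, adjusted p = 0.028). For both, the highest KO library stayed below the lowest control library, and KO replicate 1 was the highest KO library. Mrpl28, a large-subunit protein shared with bacteria, had 313, 296 and 291 units in Raptor KO GMPs, against 465, 409 and 420.3 units in Raptor fl/fl GMPs (-0.52 ± 0.12, adjusted p = 0.023). Mrpl18 had 487, 374 and 427 units in Raptor KO GMPs, against 654, 557 and 565 units in Raptor fl/fl GMPs (-0.47 ± 0.13, adjusted p = 0.045). Both large-subunit genes were also fully separated between the groups.

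The other members ranged from -0.70 to 0.39 on the log2 scale. The 5 lowest of all were Mrpl54, Mrps36, Mrpl27 (-0.67), Mrpl41 and Mrps21 (-0.64), and the 5 highest Mrps2, Mrpl24 (0.26), Mrps6 (0.25), Mrps27 (0.21) and Mrps35 (0.19). Mrps36, which despite its name is a part of the oxoglutarate dehydrogenase complex, came close with -0.70 ± 0.20 (adjusted p = 0.053), and Mrpl41 with -0.66 ± 0.18 (adjusted p = 0.0502). At the other end stood Mrps2, a small-subunit protein shared with bacteria, with 199, 201.4 and 195 units in Raptor KO, against 167, 141 and 148 units in Raptor fl/fl (0.39 ± 0.15, adjusted p = 0.152). It was the single member whose KO libraries all lay above the controls. Large-subunit members with a bacterial counterpart had a median of -0.29 (29 genes), those without one -0.24 (20 genes), small-subunit members with a counterpart -0.29 (15 genes) and those without one -0.08 (10 genes).

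**Figure D2:**
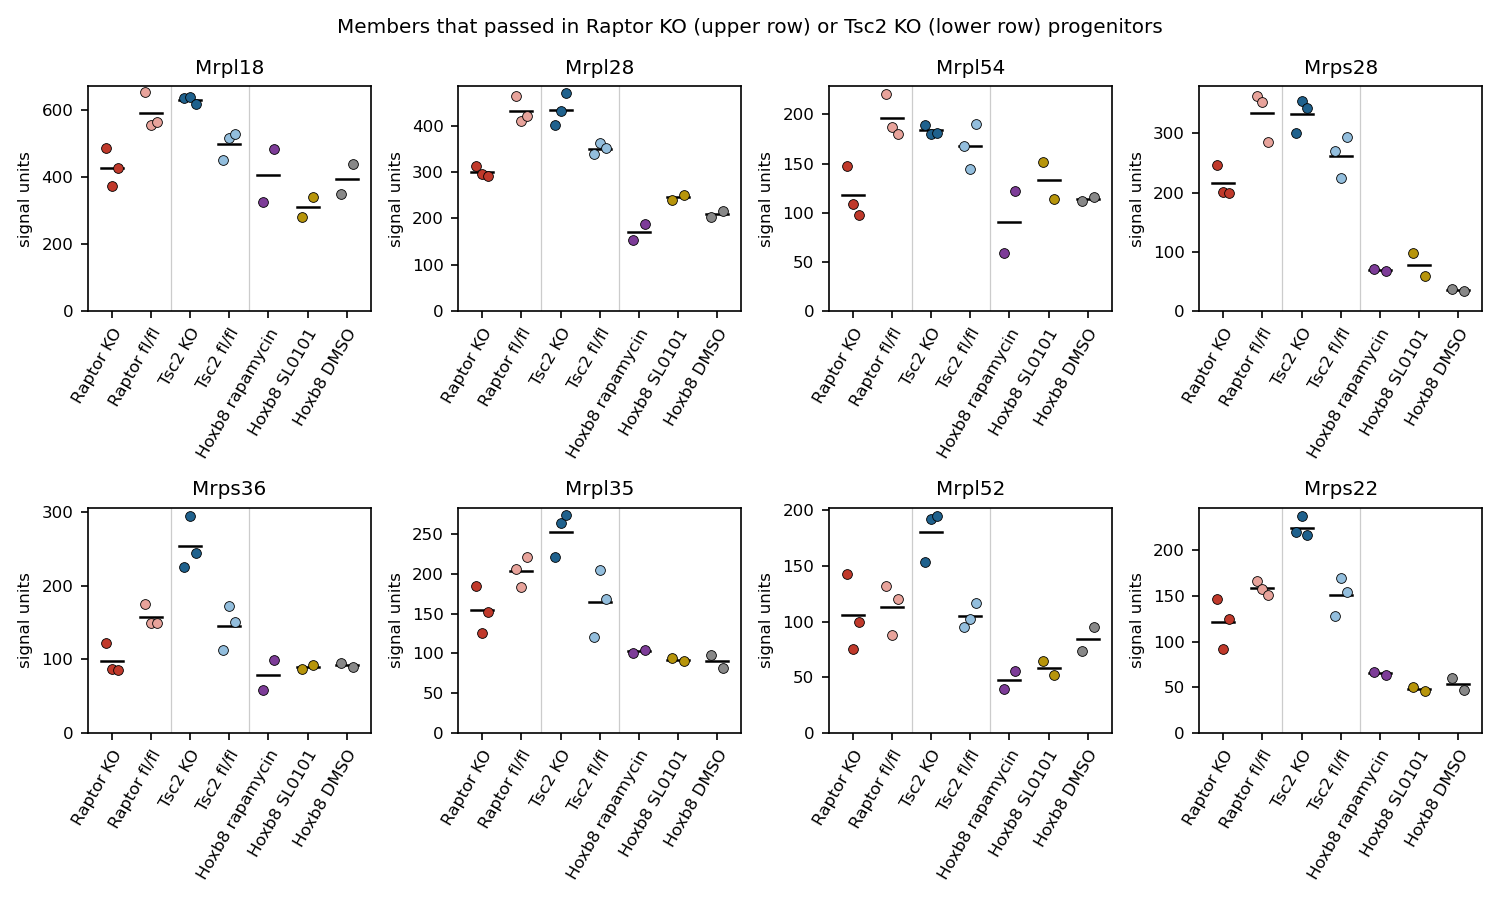
Signal units (y axis, from 0) of the 4 members that fell in Raptor KO GMPs (upper row) and the 4 that rose in Tsc2 KO GMPs (lower row), for all 7 groups. Points are libraries and bars group means. Mrpl28, Mrps28, Mrpl35 and Mrps22 sit lower in all 6 Hoxb8 libraries than in any GMP library.

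The count of 4 that fell moved with single libraries. It was 0 without Raptor KO replicate 2, without Raptor KO replicate 3 and without Raptor fl/fl replicate 1, it was 1 without Raptor fl/fl replicate 2 or 3, and 9 without Raptor KO replicate 1, while the median of the members stayed between -0.38 and -0.19.

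Short transcripts were lower in Raptor KO than in Raptor fl/fl GMPs among all genes, and many members are short. Across the 77 members, which share the same libraries, the Raptor log2 fold change and the log10 of the transcript length had a Pearson r of 0.578 and a Spearman rho of 0.595. Below 700 bases, all 333 genes had a median log2 fold change of -0.37 and the 13 members one of -0.57. From 700 to 1000 bases the medians were -0.21 (645 genes) and -0.37 (17 members). From 1000 to 2000 bases they were -0.05 (2954 genes) and -0.24 (28 members), and from 2000 bases 0.09 (8056 genes) and -0.10 (19 members). The members' median was lower than that of all genes in each length class. The controls differed by length too. In Raptor fl/fl against Tsc2 fl/fl, all genes had medians of 0.34, 0.22, 0.11 and -0.01 from the shortest class to the longest. Those of the members were 0.23, 0.09, 0.09 and 0.08. The same Raptor fl/fl libraries enter both of these comparisons, so the 2 trends are not independent. In Tsc2 KO against Tsc2 fl/fl, which uses none of them, all genes had medians of 0.02, 0.01, 0.03 and -0.03. Those of the members were 0.23, 0.23, 0.14 and 0.15. The part of length in the members' fall was not tested further.

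**Figure D3:**
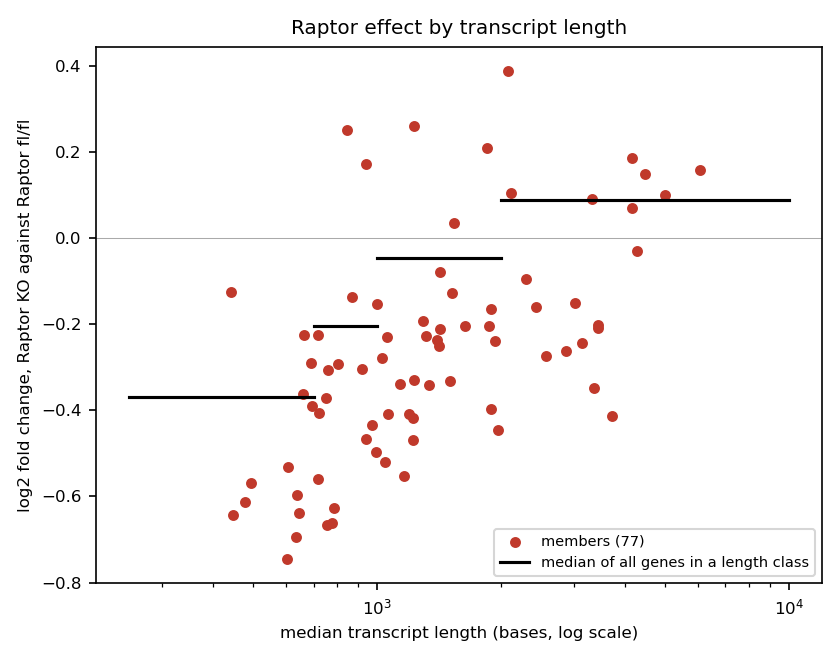
Log2 fold change in Raptor KO against Raptor fl/fl GMPs (y axis) by median transcript length (bases, log scale, x axis), with 1 point per member and a black line at the median of all genes in each of 4 length classes. Both the members and all genes are lower at short lengths, with Mrpl54 lowest at -0.75.

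Markers of other cells differed between the same groups. The summed level of 6 B lymphoid markers was 103 to 139 units in Raptor KO, against 696 to 1013 units in Raptor fl/fl, with Ms4a1 at 0 in 2 of 3 KO libraries. That of 9 erythroid markers was 1507 to 2063 units in Raptor KO, against 3320 to 3811 units in Raptor fl/fl, and that of 6 macrophage markers 337 to 913 units in Raptor KO, against 106 to 160 units in Raptor fl/fl. Of the 6 macrophage markers, 5 had positive log2 fold changes and 1 a negative one, and 1 rose in limma. Gpnmb averaged 384 units in Raptor KO and 1.87 units in Raptor fl/fl, while C1qa averaged 9.56 and 16.9 units. The sum of 5 megakaryocyte markers was 394 to 433 units, against 862 to 1225 units. Their part in the result was not tested.

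The genes around the mitochondrial ribosome fell in part as well. Of 76 respiratory chain genes, 20 fell and 0 rose, with a median of -0.42. With p under 0.05 left unadjusted, 51 were lower and 0 higher, and with voom weights 26 were lower and 0 higher. Many respiratory chain genes are short as well. From the shortest length class to the longest their medians were -0.56 (34 genes), -0.37 (16 genes), -0.29 (19 genes) and -0.16 (7 genes). Those of the members were -0.57, -0.37, -0.24 and -0.10. Atp5k, a small subunit of ATP synthase, averaged 51.0 ± 12.2 units in Raptor KO and 108 ± 23.9 units in Raptor fl/fl GMPs (SD, n = 3 each). Uqcrq, a subunit of complex III, averaged 229 ± 52.7 units in Raptor KO and 439 ± 106 units in Raptor fl/fl. Ndufb7 and Ndufa11, accessory subunits of complex I, were at 211 ± 44.9 and 147 ± 27.0 units in Raptor KO, against 398 ± 28.1 and 278 ± 34.2 units in Raptor fl/fl. Of 15 mitochondrial translation factors, Slirp, which holds mitochondrial messenger RNAs with Lrpprc, fell (85.2 ± 18.4 units in Raptor KO and 163 ± 5.10 units in Raptor fl/fl, log2 fold change -0.95, limma adjusted p = 0.010). Of these 15, 0 rose in limma, 1 was higher at an unadjusted p under 0.05 and 0 were higher with voom weights. None of 17 mitochondrial tRNA synthetases, 24 assembly factors of the mitochondrial ribosome, 13 regulators of mitochondrial transcription or 6 subunits with other names passed in limma or with voom weights. Unadjusted, at p under 0.05, 0 rose and 2 fell, 1 rose and 1 fell, 3 rose and 1 fell, and 0 rose and 2 fell among those 4 lists. In the cytosolic ribosome, 6 of 78 genes rose and 1 fell, with a median of 0.10.

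Tsc2 KO GMPs differed from their controls in the opposite direction. In Tsc2 KO against Tsc2 fl/fl, 4 members rose and 0 fell (5.19% and 0.00% of members), where 5.26% of 13237 genes rose and 7.12% fell. The share of members that rose was therefore close to that of all genes. At an unadjusted p under 0.05, 15 were higher and 0 lower, and with voom weights 4 were higher and 0 lower. Their log2 fold changes had a median of 0.18, against -0.02 for all genes, and 66 of 77 were positive. In 27 members each KO library lay above each control library and in 0 below, where 14.6% and 13.3% of all genes did so.

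Mrps36 had 225, 294 and 244 units in Tsc2 KO GMPs, against 113, 172 and 150.5 units in Tsc2 fl/fl GMPs (log2 fold change 0.82 ± 0.20 (SE), adjusted p = 0.011). Mrpl52, a large-subunit protein particular to mitochondria, had 153, 193 and 195 units in Tsc2 KO GMPs, against 95.4, 102 and 117 units in Tsc2 fl/fl GMPs (0.77 ± 0.23, adjusted p = 0.032). The KO libraries lay above all control libraries for both genes. Mrpl35, a large-subunit protein shared with bacteria, had 221, 264 and 274 units in Tsc2 KO GMPs, against 121, 205 and 168 units in Tsc2 fl/fl GMPs (0.64 ± 0.20, adjusted p = 0.037). Mrps22, a small-subunit protein particular to mitochondria, had 220.1, 237 and 216 units in Tsc2 KO GMPs, against 127, 170.1 and 154 units in Tsc2 fl/fl GMPs (0.58 ± 0.18, adjusted p = 0.043). The KO and control libraries did not overlap here either, with Tsc2 fl/fl replicate 2 the highest control.

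Mrpl33, a large-subunit protein shared with bacteria, was lowest of the members, with 240.0, 143 and 129 units in Tsc2 KO, against 295, 146 and 246 units in Tsc2 fl/fl (-0.42 ± 0.29, adjusted p = 0.392), and its groups overlapped. Mrpl24 (-0.25), Mrpl10 (-0.16), Mrpl19 (-0.16) and Mrps33 (-0.15) were the next lowest, and Mrpl47 (0.56) followed the 4 that passed at the top. The 15 small-subunit members shared with bacteria (median 0.22) and the 20 large-subunit members particular to mitochondria (median 0.15) all had positive changes. The small-subunit members particular to mitochondria were split, 5 positive and 5 negative, with a median of -0.01. Of the 6 subunits with other names, Dap3, a GTP-binding protein of the small subunit, rose (442 ± 54.2 units in Tsc2 KO and 288 ± 37.8 units in Tsc2 fl/fl, SD, n = 3 each, log2 fold change 0.62, adjusted p = 0.0089).

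The number that rose was 4 without Tsc2 fl/fl replicate 2 and 6 without Tsc2 KO replicate 1, the libraries that stood apart in their GMP markers. It was 0 when Tsc2 KO replicate 2 was left out and 0 when Tsc2 fl/fl replicate 1 was. It was 1 without Tsc2 KO replicate 3, 1 without Tsc2 fl/fl replicate 3, and 2 without replicate 2 of both groups, an alternative chosen after seeing the data. Erythroid markers summed to 11176 to 22495 units in Tsc2 KO, against 2605 to 9202 units in Tsc2 fl/fl. Of these 9 genes 2 rose and 0 fell in limma. Car2 averaged 9742 units in Tsc2 KO and 2691 units in Tsc2 fl/fl, while Alas2 averaged 30.4 and 29.6 units. Macrophage markers summed to 422 to 704 units in Tsc2 KO, against 16.9 to 82.4 units in Tsc2 fl/fl, and B lymphoid markers to 17.8 to 65.6 units in Tsc2 KO, against 315 to 497 units in Tsc2 fl/fl, with Ebf1 at 0 in 2 of 3 KO libraries. Megakaryocyte markers summed to 159 to 178 units in Tsc2 KO, against 375 to 705 units in Tsc2 fl/fl, and 4 of the 5 genes fell in limma. The part of these cells in the result was not tested.

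In the same comparison 9 of 76 respiratory chain genes rose and 0 fell (median 0.22, with 21 higher and 0 lower at an unadjusted p under 0.05, and 10 higher and 0 lower with voom weights). Among them were Ndufs1, the large iron-sulfur subunit of complex I (599 ± 64.4 units in Tsc2 KO and 366 ± 85.6 units in Tsc2 fl/fl), and Sdhd, a membrane anchor of complex II (1171 ± 67.6 units in Tsc2 KO and 805 ± 83.5 units in Tsc2 fl/fl, SD, n = 3 each). Gfm1, an elongation factor of mitochondrial translation, rose (338 ± 42.4 units in Tsc2 KO and 215 ± 15.0 units in Tsc2 fl/fl), as did Afg3l2, a protease that matures Mrpl32 (371 ± 47.0 units in Tsc2 KO and 235 ± 39.2 units in Tsc2 fl/fl). Lars2, the leucyl-tRNA synthetase of mitochondria, fell (3472 ± 616 units in Tsc2 KO and 4828 ± 886 units in Tsc2 fl/fl). Of 78 cytosolic ribosomal protein genes 0 passed in limma, with a median of -0.09. Before adjustment, at p under 0.05, 0 were higher and 3 lower, and with voom weights 0 were higher and 1 lower.

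The difference between both effects was tested directly. The Raptor effect minus the Tsc2 effect was negative and past the threshold in 15 members and positive in 0 (19.5% and 0.00% of members), where 6.44% of 13237 genes passed as lower and 5.99% as higher. With p under 0.05 left unadjusted, 28 members were lower and 0 higher, and with voom weights 16 were lower and 0 higher. The median was -0.41, against 0.08 for all genes, and 70 of 77 members were negative. Mrps36 had the widest gap at -1.51 ± 0.28 (SE, adjusted p = 0.0028). Its mean was 98.04 ± 21.1 units in Raptor KO and 158 ± 14.8 units in Raptor fl/fl, against 254 ± 35.7 units in Tsc2 KO and 145 ± 29.9 units in Tsc2 fl/fl (SD, n = 3 each).

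Next in size among the 15 were Mrpl35 (-1.06 ± 0.28), Mrps21 (-1.02 ± 0.28), Mrps24 (-1.01 ± 0.29) and Mrpl20 (-0.99 ± 0.23). Mrps21 and Mrps24 are small-subunit proteins shared with bacteria, the second related to the bacterial S3 protein at the messenger RNA entry. They were followed by Mrps22 (-0.99 ± 0.26), Mrpl41 (-0.98 ± 0.26), a large-subunit protein particular to mitochondria, and Mrps28 (-0.97 ± 0.22). Mrpl20 had 315, 233 and 221 units in Raptor KO, against 449, 374 and 317 units in Raptor fl/fl, and 397, 439 and 447 units in Tsc2 KO, against 289.6, 300.3 and 371 units in Tsc2 fl/fl. The KO libraries of each line lay fully to 1 side of their controls, although neither single comparison passed for Mrpl20. At the other end, Mrpl24, a large-subunit protein shared with bacteria, had a positive difference of 0.50 ± 0.30 (adjusted p = 0.300), followed by Mrps2 (0.33), Mrps35 (0.28), Mrpl19 (0.26) and Mrps25 (0.25).

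By role, 7 of 29 large-subunit members shared with bacteria passed, 2 of 20 large-subunit members particular to mitochondria, 3 of 15 small-subunit members shared with bacteria and 1 of 10 particular to mitochondria. Mrps28 and Mrps36, left out of these classes, passed as well. Mrps30 and Mrps18a, named for the small subunit but placed in the large one, had differences of -0.17 ± 0.21 and -0.46 ± 0.25 (adjusted p = 0.641 and 0.245). Across the 77 members, Raptor and Tsc2 effects had opposite signs in 61, with a Pearson r of -0.255, and a Spearman rho of -0.266. These comparisons share no library.

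**Figure D4:**
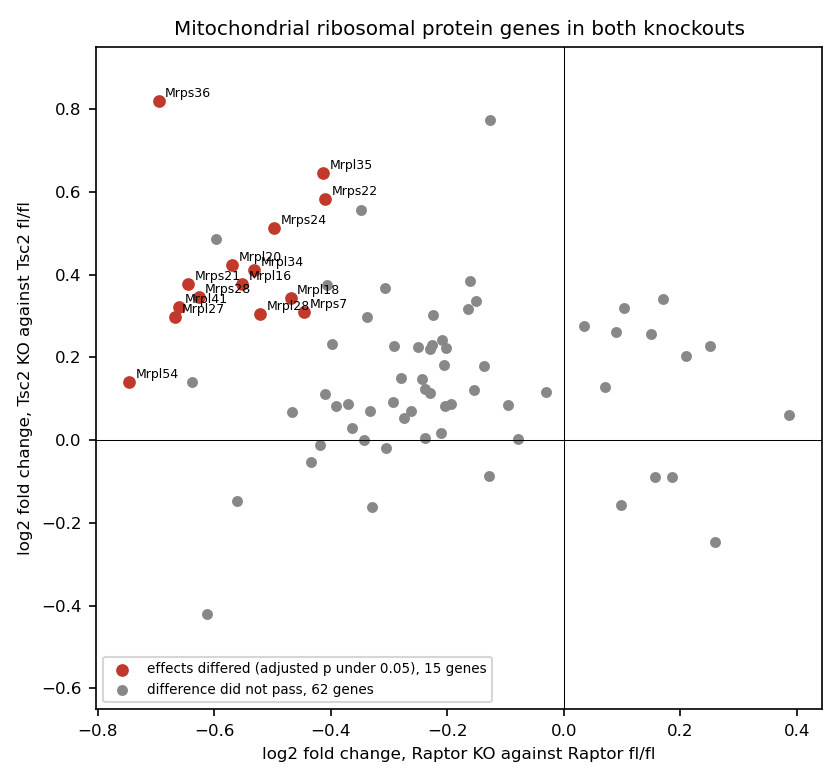
Log2 fold change of each member in Raptor KO against Raptor fl/fl (x axis) and in Tsc2 KO against Tsc2 fl/fl (y axis). Red points are the 15 members whose effects differed at an adjusted p under 0.05, grey points the others; most points lie at the upper left, with Mrps36 at its corner.

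The count of 15 was 6 without Raptor KO replicate 2 and 6 without Tsc2 KO replicate 2. It was 8 when Raptor KO replicate 3, Raptor fl/fl replicate 1 or Tsc2 KO replicate 3 was left out, and 10 without Tsc2 fl/fl replicate 1. In 4 length classes the members' median difference was -0.89, -0.46, -0.39 and -0.22 from the shortest to the longest, against -0.41, -0.20, -0.06 and 0.15 for all genes. Of the respiratory chain 38 of 76 genes passed as lower and 0 as higher (median -0.68), and of the cytosolic ribosome 8 of 78 as higher and 0 as lower (median 0.19). At an unadjusted p under 0.05, 0 respiratory chain genes were higher and 2 cytosolic genes lower, and with voom weights 0 and 0.

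In Raptor fl/fl against Tsc2 fl/fl GMPs 0 members passed in limma in either direction, where 0.604% of 13237 genes did, 0.121% as higher and 0.483% as lower, and 6 were higher and 0 lower at an unadjusted p under 0.05. With voom weights 0 passed. In 7 members all Raptor fl/fl libraries lay above all Tsc2 fl/fl libraries and in 3 below, where 9.25% and 8.18% of all genes did so. The median was 0.11, against 0.05 for all genes, and the range was -0.41 (Mrps31) to 0.60 (Mrpl33). Mrps2 (-0.27), Mrps11 (-0.16), Mrps18b (-0.15) and Mrpl2 (-0.12) were the next lowest, and Mrps18c (0.46), Mrpl48 (0.45), Mrpl23 (0.45) and Mrps23 (0.43) the next highest. Of the respiratory chain and the cytosolic ribosome 0 genes passed between these controls in limma or with voom weights. The respiratory chain had a median of 0.28, with 24 genes higher and 0 lower at an unadjusted p under 0.05 and 30 of 76 with all Raptor fl/fl libraries above all Tsc2 fl/fl libraries and 0 below. The cytosolic ribosome had a median of 0.38, with 64 genes higher and 1 lower at an unadjusted p under 0.05 and 65 of 78 with all Raptor fl/fl libraries above and 1 below. The same control libraries enter the difference between the 2 knockout effects.

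In the Hoxb8 line, a few members were higher in rapamycin, and the group as a whole stayed close to its DMSO level. In rapamycin against DMSO 4 members rose and 0 fell (5.19% and 0.00% of members), where 5.40% of 11804 genes rose and 6.35% fell, so that the share was close to that of all genes. By unadjusted p under 0.05, 9 were higher and 2 lower, and with voom weights 3 were higher and 2 lower. The median log2 fold change was 0.12, against -0.01 for all genes, with 48 members positive and 29 negative. In 30 members both rapamycin libraries lay above both DMSO libraries and in 9 below, where 25.3% and 27.0% of all genes did so.

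Mrps18b, related to the bacterial S18 protein but classed here with the small-subunit members particular to mitochondria, had 166 and 157 units in rapamycin, against 93.2 and 78.8 units in DMSO (log2 fold change 0.90 ± 0.20 (SE), adjusted p = 0.0031). Mrps28 had 71.5 and 68.3 units in rapamycin, against 37.9 and 34.9 units in DMSO (0.92 ± 0.27, adjusted p = 0.030). The libraries of both genes were fully separated. Mrpl30, a large-subunit protein shared with bacteria, had 242 and 259.8 units in rapamycin, against 146 and 183 units in DMSO (0.61 ± 0.18, adjusted p = 0.025). Mrps6, a small-subunit protein shared with bacteria and the member with the lowest single value, had 27.4 and 43.6 units in rapamycin, against 20.5 and 9.94 units in DMSO (1.21 ± 0.40, adjusted p = 0.0497). The higher DMSO library of Mrps6 lay close below the lower rapamycin library, and its call was lost in 9 of 14 alternatives, with an adjusted p of up to 0.446.

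Mrpl52, which rose in Tsc2 KO GMPs, had 39.4 and 56.0 units in rapamycin, against 73.5 and 95.4 units in DMSO (-0.82 ± 0.27, adjusted p = 0.0502). Mrpl27, a large-subunit protein shared with bacteria, had 45.8 and 49.3 units in rapamycin, against 67.9 and 97.9 units in DMSO (-0.77 ± 0.26, adjusted p = 0.056). Neither passed, though the libraries did not overlap. Mrps18c (-0.51), Mrpl54 (-0.42) and Mrpl41 (-0.40) were next, and Mrpl38 (0.86, adjusted p = 0.053) stood among the highest. The count of members that rose was 0 without DMSO replicate 2, 2 without DMSO replicate 1, 3 without rapamycin replicate 1 and 1 without rapamycin replicate 2, and without the last of these 6 members fell. The members' median was 0.02 without rapamycin replicate 2 or DMSO replicate 1 and 0.24 without rapamycin replicate 1.

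The cytosolic ribosome stood in contrast. In rapamycin 75 of its 78 genes rose and 0 fell, with a median of 0.95, and 0 were lower at an unadjusted p under 0.05 or with voom weights. Of the respiratory chain 0 of 76 genes rose and 5 fell (median -0.07, with 3 higher and 11 lower at an unadjusted p under 0.05, and 0 higher and 8 lower with voom weights), among them Sdhb (448 ± 36.2 units in rapamycin and 684 ± 96.5 units in DMSO, SD, n = 2 each) and Ndufb6 (85.7 ± 7.11 units in rapamycin and 143 ± 4.96 units in DMSO). The ribosome recycling factor of mitochondria, Mrrf, rose (54.3 ± 5.53 units in rapamycin and 24.8 ± 7.16 units in DMSO), as did Pprc1, a coactivator of mitochondrial genes (104 ± 20.3 units in rapamycin and 44.3 ± 7.84 units in DMSO). Noa1, a GTPase of mitochondrial ribosome assembly, rose too (109.5 ± 16.2 units in rapamycin and 65.1 ± 4.03 units in DMSO), but with voom weights 0 of the 24 assembly factors passed.

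With SL0101 more members rose, and these rest on the same DMSO libraries. In SL0101 against DMSO 7 members rose and 0 fell (9.09% and 0.00% of members), where 5.09% of 11804 genes rose and 5.79% fell. Before adjustment, at p under 0.05, 18 were higher and 1 lower, and with voom weights 8 were higher and 0 lower. The median was 0.17, against -0.02 for all genes, with 56 members positive and 21 negative. In 38 members both SL0101 libraries lay above both DMSO libraries and in 12 below, where 26.6% and 28.2% of all genes did so.

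Mrpl15, a large-subunit protein shared with bacteria, had 230.0 and 221 units in SL0101, against 128 and 147 units in DMSO (0.71 ± 0.18, adjusted p = 0.011). Mrps18b had 139.9 and 153 units in SL0101, against 93.2 and 78.8 units in DMSO (0.76 ± 0.20, adjusted p = 0.013). Mrps28 had 97.9 and 59.9 units in SL0101, against 37.9 and 34.9 units in DMSO (1.05 ± 0.27, adjusted p = 0.015). The SL0101 libraries lay above both DMSO libraries in all 3 genes, and they were farthest from each other in Mrps28.

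Mrps26, a small-subunit protein particular to mitochondria, had 202 and 195 units in SL0101, against 138 and 112 units in DMSO (0.67 ± 0.19, adjusted p = 0.022). Mrpl17, a large-subunit protein shared with bacteria, had 282 and 241 units in SL0101, against 160.4 and 174 units in DMSO (0.64 ± 0.18, adjusted p = 0.029). The stalk protein Mrpl12 had 180.2 and 190.2 units in SL0101, against 122 and 121 units in DMSO (0.60 ± 0.19, adjusted p = 0.039). All 3 groups were again separated, and the DMSO libraries of Mrpl12 nearly coincided. Mrpl38, a large-subunit protein particular to mitochondria, had 91.0 and 53.8 units in SL0101, against 42.7 and 31.5 units in DMSO (0.91 ± 0.29, adjusted p = 0.043). Mrps6 was among the highest without passing (0.92 ± 0.40, adjusted p = 0.152), and the lowest were Mrpl52 (-0.53), Mrps18c (-0.52), Mrps21 (-0.49), Mrpl1 (-0.41) and Mrpl27 (-0.36). The count was 0 without SL0101 replicate 1, DMSO replicate 1 or DMSO replicate 2, and 3 without SL0101 replicate 2.

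Of 76 respiratory chain genes 3 rose and 0 fell in SL0101 (median -0.05, with 6 higher and 4 lower at an unadjusted p under 0.05, and 3 higher and 1 lower with voom weights), and of 78 cytosolic ribosomal protein genes 20 rose and 0 fell (median 0.34, with 0 lower at an unadjusted p under 0.05 or with voom weights). Lrpprc, which stabilizes mitochondrial messenger RNAs, rose (179 ± 15.8 units in SL0101 and 99.3 ± 13.7 units in DMSO, SD, n = 2 each) and its partner Slirp fell (41.1 ± 1.28 units in SL0101 and 76.95 ± 2.68 units in DMSO). Pprc1 rose (118 ± 19.4 units in SL0101 and 44.3 ± 7.84 units in DMSO), as did Noa1 (129 ± 26.8 units in SL0101 and 65.1 ± 4.03 units in DMSO) and Afg3l2 (206 ± 36.9 units in SL0101 and 121 ± 6.11 units in DMSO).

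Between the inhibitors, which were used at different doses and have different targets, 0 members passed in limma in rapamycin against SL0101, where 8.87% of 11804 genes did, 4.43% as higher and 4.44% as lower. At an unadjusted p under 0.05, 2 were higher and 9 lower in rapamycin, and 1 passed as lower with voom weights. The median was -0.11, against 0.01 for all genes. In 12 members both rapamycin libraries lay above both SL0101 libraries and in 22 below, where 26.1% and 25.1% of all genes did so. The lowest were Mrpl54 (-0.62), Mrpl53 (-0.54), Mrpl28, Mrpl3 (-0.52) and Mrps18a (-0.47), and the highest Mrpl48 (0.60), Mrps11 (0.51), Mrpl1 (0.46), Mrps22 (0.44) and Mrpl30 (0.43). Mrpl28 came closest, with 154 and 187 units in rapamycin, against 239.6 and 251 units in SL0101 (-0.53 ± 0.17, adjusted p = 0.058). Of the cytosolic ribosome 60 of 78 genes were higher in rapamycin, with a median of 0.61. The subunits Gabpa and Gabpb1 of the factor that binds the ETS-type string were lower in rapamycin than in SL0101. Gabpa averaged 145 ± 21.2 units in rapamycin and 225 ± 5.90 units in SL0101, and Gabpb1 117 ± 3.72 units in rapamycin and 212 ± 18.0 units in SL0101 (SD, n = 2 each). This is no comparison with DMSO. With voom weights, 0 of 13 regulators of mitochondrial transcription were lower and 1 higher in rapamycin against DMSO. In SL0101 against DMSO 0 were lower and 2 higher.

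Neutrophil maturation markers (6 genes) summed to 37368 to 41223 units in rapamycin and 26012 to 36720 units in SL0101, against 50866 to 67838 units in DMSO. Their part in the members' values was not tested.

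**Figure D5:**
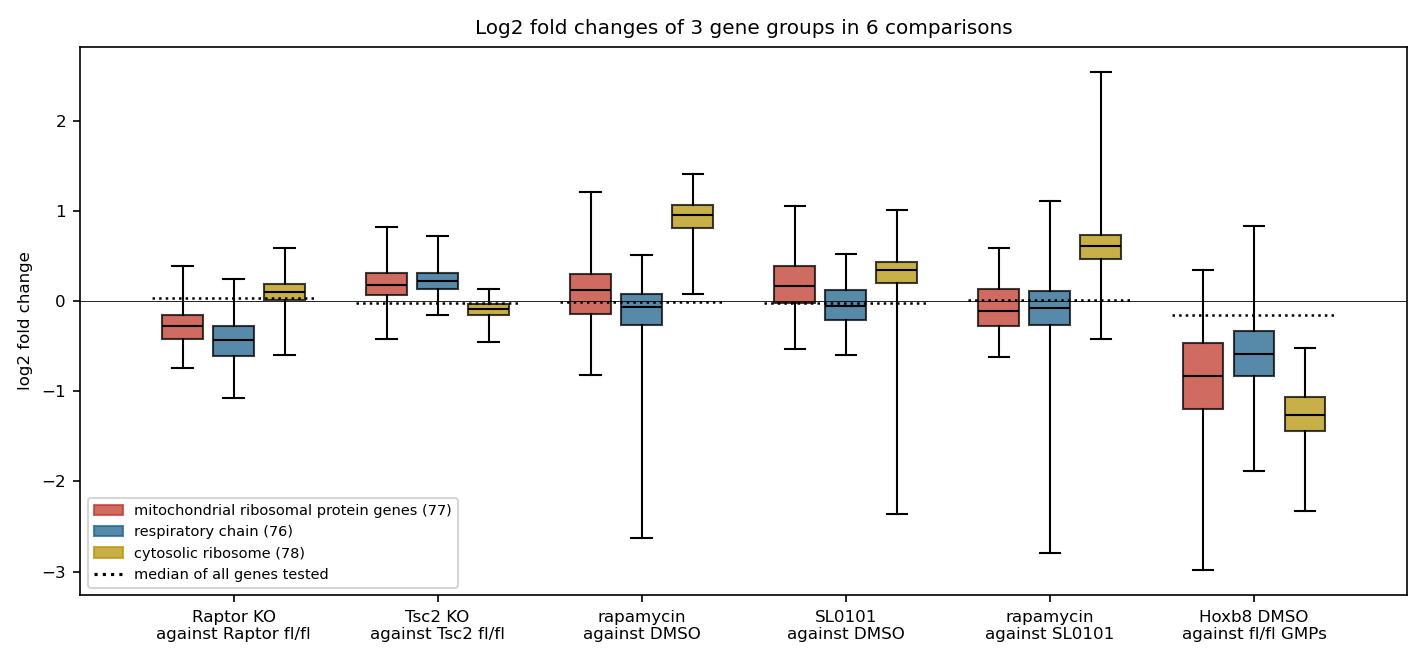
Log2 fold changes (y axis) of the 77 mitochondrial ribosomal protein genes, 76 respiratory chain genes and 78 cytosolic ribosomal protein genes in 6 comparisons. Boxes span the middle of each distribution with its median, whiskers reach the lowest and highest gene, and dotted lines mark the median of all genes; the mitochondrial ribosomal genes have medians of -0.27 in Raptor KO, 0.18 in Tsc2 KO and -0.83 in Hoxb8 DMSO cells against fl/fl GMPs.

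The widest difference lay between the cell systems. In Hoxb8 DMSO cells against the 6 fl/fl GMP libraries, 57 members were lower and 0 higher (74.0% and 0.00% of members), where 28.1% of 14397 genes were lower and 21.6% higher, 49.7% in all. Unadjusted, at p under 0.05, 61 were lower and 0 higher, and with voom weights 65 were lower and 0 higher. The median was -0.83, against -0.15 for all genes, and 72 of 77 were negative. In 59 members both DMSO libraries lay below all 6 GMP libraries and in 0 above, where 27.3% and 23.2% of all genes did so. The groups differ in cell source, maturity and culture, which cannot be told apart. The neutrophil maturation markers summed to 50866 to 67838 units in Hoxb8 DMSO cells, against 245 to 940.4 units in fl/fl GMPs.

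Mrps28 had 37.9 and 34.9 units in Hoxb8 DMSO cells, against 225 to 364 units in fl/fl GMPs (log2 fold change -2.98 ± 0.18 (SE), adjusted p = 6.1e-12). Mrps6 had 20.5 and 9.94 units in Hoxb8 DMSO cells, against 70.9 to 104 units in fl/fl GMPs (-2.52 ± 0.26, adjusted p = 3.8e-08). Mrpl47 had 14.2 and 24.9 units in Hoxb8 DMSO cells, against 78.7 to 109 units in fl/fl GMPs (-2.16 ± 0.28, adjusted p = 1.2e-06). In these 3 genes the GMP libraries stood far above both line libraries.

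Mrpl38 (-2.01 ± 0.19), Mrpl12 (-1.93 ± 0.13), Mrpl42 (-1.72 ± 0.17), Mrps5 (-1.62 ± 0.15) and Mrpl50 (-1.55 ± 0.15) came next. Mrpl12 had 122 and 121 units in Hoxb8 DMSO cells, against 414 to 503 units in fl/fl GMPs. By contrast Mrpl33 had 317 and 374 units in Hoxb8 DMSO cells, against 146 to 385 units in fl/fl GMPs (0.34 ± 0.29, adjusted p = 0.353), and its values overlapped. Mrps18c (0.19 ± 0.27) and Mrpl14 (0.14 ± 0.22) followed. Mrpl19 and Mrpl10, large-subunit proteins shared with bacteria, had log2 fold changes of 0.06 ± 0.15 and 0.02 ± 0.17. All 10 small-subunit members particular to mitochondria were lower (median -0.77), though Mrps31 lost its call in 9 of 18 alternatives (adjusted p of up to 0.481), against 12 of 20 large-subunit members particular to mitochondria (median -0.50). Members of the mitochondrial ribosome were thus unequal in how far the cell systems lay apart, over a range of -2.98 to 0.34.

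Of the respiratory chain 52 of 76 genes were lower in Hoxb8 DMSO cells and 1 higher (median -0.59), and of the cytosolic ribosome 77 of 78 were lower and 0 higher (median -1.26, with 0 higher at an unadjusted p under 0.05 or with voom weights). Of 17 mitochondrial tRNA synthetases 13 were lower, of 15 translation factors 8 were lower, and in both lists 0 were higher in limma, at an unadjusted p under 0.05 and with voom weights. Of 24 assembly factors 10 were lower and 2 higher. The median of all genes moved with the scaling, to -0.03 with quantile normalization and -0.29 with voom weights, while the members' medians were -0.91 and -0.94.

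Over the 8 comparisons, 62 of 77 members passed at least once, and 24 did so in a comparison other than that of the cell systems. Several of these comparisons share libraries.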

How the data were processed

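The 12 GMP and 6 Hoxb8 libraries were grouped by sample title, since 1 genotype label of the Tsc2 samples names Raptor. The deposited table holds 1 normalized signal per gene and library, made by the authors with BWA, TopHat2 2.0.10, Cufflinks 2.2.1 and Cuffnorm, per the submitters' processing notes. No build is named in the sources used here. Signal totals were 2.15 to 2.59 M units per library. In each library 98.4% to 98.6% of values were whole multiples, within 0.01, of a smallest step, from which the fragments were estimated. The values of Mrps6 were not whole multiples in any library, and what this does to its fold changes was not tested.

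Members, lists, tests and alternatives were chosen with earlier results of these data known. limma 3.58.1 in R 4.3.3 was run on log2(signal + 1) with a mean-variance trend and robust moderation, over genes at 1 or more in at least 3 libraries (GMP fit) or 2 libraries (Hoxb8 fit, and fit of all 18), with Benjamini-Hochberg adjustment over all genes of a comparison. A fold change on this scale understates that of low genes. Every SE in the text is limma's. Transcript lengths are GENCODE M21 medians per gene. Named members are those that passed (the 8 largest where more than 12 passed), the 5 highest and 5 lowest per comparison, the 5 with the most and least signal, and Mrps30, Mrps18a, Mrps36 and Mrpl12, plus up to 4 passing genes per list. Where Mrps2 and Mrpl20 have values by library, or a gene missed the threshold narrowly, they were chosen after their values were seen.

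Tested on simulated data with 200 changed genes, the fit recovered 73% of 2-fold changes for Raptor KO against Raptor fl/fl (11105 genes) and 78.5% for rapamycin against DMSO (9981 genes), against 17% and 29% of 1.5-fold changes. Other pseudocounts, filters, scalings, voom weights, a replicate block and the omission of each library were tried.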

Additional observations from a re-analysis of the deposited data

Results flagged for a closer look

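In 15 members the knockout effects in the Raptor and Tsc2 lines differed by a test of the difference itself (limma, interaction contrast, Raptor effect minus Tsc2 effect on the log2 scale). The widest differences were Mrps36 at -1.51 (adjusted p = 0.0028), Mrpl35 at -1.06 (adjusted p = 0.019), Mrps21 at -1.02 (adjusted p = 0.025), Mrps24 at -1.01 (adjusted p = 0.031) and Mrpl20 at -0.99 (adjusted p = 0.01). They were followed by Mrps22 at -0.99 (adjusted p = 0.018), Mrpl41 at -0.98 (adjusted p = 0.02), Mrps28 at -0.97 (adjusted p = 0.0082), Mrpl27 at -0.96 (adjusted p = 0.045) and Mrpl34 at -0.94 (adjusted p = 0.022). The others were Mrpl16 at -0.93 (adjusted p = 0.026), Mrpl54 at -0.89 (adjusted p = 0.029), Mrpl28 at -0.83 (adjusted p = 0.0059), Mrpl18 at -0.81 (adjusted p = 0.0079) and Mrps7 at -0.76 (adjusted p = 0.034). Mrps36 and Mrpl28 passed in 21 of 21 alternatives, and Mrpl18, Mrpl20 and Mrps28 in 20 of 21, while Mrpl27 passed in 10 of 21.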

How the results depend on the processing

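No member named as passing changed its direction in any alternative that was run. In Raptor KO the count of members that fell, 4 as reported, was 8 with a common total, 0 without the expression trend, 10 with the compared groups alone and 13 with the replicate block. In Tsc2 KO the count that rose, 4 as reported, was 2 without a filter, 2 with quantile scaling, 0 without the trend, 2 with the compared groups alone, 7 with the replicate block and 2 without replicate 2 of both groups (chosen after seeing the data), and the median was 0.13 with quantile scaling. The 15 that differed between the knockouts were 2 without the trend. In rapamycin 0 rose without the trend, and 2 fell with a filter at 20, with a common total, with voom weights or with the replicate block, and 1 with quantile scaling. In SL0101 0 rose without the trend. In rapamycin against SL0101 1 was lower with a filter at 20, a common total or voom weights, and 2 with the replicate block. In Hoxb8 DMSO cells against fl/fl GMPs the median was -0.94 with a common total or voom weights. The causes were not tested.

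Leaving out 1 library at a time, 0 to 9 members fell in Raptor KO (median -0.38 to -0.19) and 0 to 6 rose in Tsc2 KO (median 0.16 to 0.22). From 6 to 18 differed between the knockouts (median -0.52 to -0.34). In rapamycin 0 to 3 rose and 0 to 6 fell (median 0.02 to 0.24), and in SL0101 0 to 3 rose (median 0.11 to 0.24). In rapamycin against SL0101 0 to 2 were higher and 0 to 4 lower (median -0.17 to 0.01). In Hoxb8 DMSO cells 42 to 58 were lower (median -0.84 to -0.75). A group left with 1 library was assumed to vary like the others. Count tests with edgeR and DESeq2 were not run, since not all values were whole multiples of a step. The low recovery of small changes on simulated data limits all counts near 0. Same-numbered libraries did not deviate together in every pair (correlations of 0.010 to 0.083 in the Raptor line, -0.022 to 0.491 in the Tsc2 line and 0.037 to 0.088 in Hoxb8 cells). Differently numbered libraries had correlations of -0.092 to 0.014 in the Raptor line and -0.509 to 0.215 in the Tsc2 line. Deviations were taken from group means, so these are not independent of the same-numbered values. In Hoxb8 cells, with 2 libraries per group, they were fixed as the same values with the sign reversed (-0.088 to -0.037). A pairing by replicate number thus remains possible. It was not used in the main fits, and the replicate block was run as an alternative.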
